A study of Mus spretus with 12 samples.

Results

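The genes of bile acid synthesis and transport described here are 10: the synthesis enzymes Cyp7a1, Cyp8b1, Cyp27a1 and Cyp7b1, the conjugating enzyme Baat, the nuclear receptors Nr1h4 and Nr0b2, and the transporters Slc10a1, Abcb11 and Abcb4. They were chosen by name, as every spot other than a control whose gene name on the array is one of these symbols, which gave 17 of the 56605 probes and 10 of the 37074 gene names. On each of the 12 arrays all 17 probes were well above background. Liver RNA came from male mice of the inbred strain SPRET/EiJ (Mus spretus), aged 20 months when feeding began and 22 months when sampled, with 4 one-colour arrays in each of 3 groups. PXDDE mice ate Teklad diet with p,p'-DDE, a persistent breakdown product of the insecticide DDT, at 450 mg/kg in corn oil for 60 days, and had must of Pedro Ximenez grapes in their drinking water, which held 85 mg/L of polyphenols and 31 g/L of glucose and fructose in equal parts. DDE mice ate the same diet with the same dose and no must, and control mice ate Teklad diet with corn oil, so that diet and oil are shared by all groups. The title of the series speaks of protection by the must against liver injury. A group given must alone was not analysed here, and the labels do not say whether livers were pooled or how the mice were housed, so p-values measure the spread between these arrays, which may be technical.

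Bile acids are made from cholesterol in hepatocytes. In the classical pathway Cyp7a1 catalyses the rate-limiting first step and Cyp8b1 directs the product towards cholic acid, while Cyp27a1 and Cyp7b1 carry an alternative pathway that starts on the side chain, and Baat joins the acids to taurine or glycine. The bile acid receptor FXR (Nr1h4) induces SHP (Nr0b2), a corepressor that lowers transcription of Cyp7a1 and Cyp8b1, and it also induces the export pump BSEP (Abcb11). NTCP (Slc10a1) takes bile acids up from portal blood at the sinusoidal membrane, BSEP moves them into the canaliculus, and Abcb4 (MDR2 in mice) moves phosphatidylcholine into bile.

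The probes on which the results turn are shown with the capitals marking bases that lie in a run of 16 or more shared with a probe of another gene. All are written 5′ to 3′ as in the deposited files, with mm9 positions from the same files. Where a probe may reach beyond the coding part of its gene, 30 of its 60 bases are given. The first 2 are both assigned to Slc10a1 and moved in opposite directions, and the letters of the first are those of the B1 repeat, a short element found at very many places in the mouse genome. The 3 of Abcb4 and the single probes of Nr0b2, Cyp8b1 and Abcb11 carry the other results.
Slc10a1 probe 1: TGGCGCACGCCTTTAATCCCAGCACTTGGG
Slc10a1 probe 2: ccacaacctgcttcatgttgtaactcaaaa
Nr0b2: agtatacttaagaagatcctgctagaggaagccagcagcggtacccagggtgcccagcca
Cyp8b1: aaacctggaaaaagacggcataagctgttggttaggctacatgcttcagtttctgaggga
Abcb11: aggaaatctatgcaAGCAATGGAAATGCAT
Abcb4 probe 1: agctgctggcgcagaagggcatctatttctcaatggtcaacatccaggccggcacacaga
Abcb4 probe 2: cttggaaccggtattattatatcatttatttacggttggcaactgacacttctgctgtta
Abcb4 probe 3: aagtttgtagataatactgggaacttttcc

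Slc10a1 probe 1 lies at chr12:82056539-82056598 (minus strand), and 45 of its 60 bases fall in runs shared with probes of other genes, 18 genes in all. Of all probes on the array, 80.6% share no such run with another gene and 0.602% share one with at least as many genes. Slc10a1 probe 2 lies at chr12:82054180-82054239 (minus strand), 2299 bases nearer the 3′ end of the gene, and shares no such run. The Nr0b2 probe is at chr4:133109694-133109753 (plus strand), the Cyp8b1 probe at chr9:121824595-121824654 (minus strand) and the Abcb11 probe at chr2:69076390-69076449 (minus strand). The probes of Abcb4 (plus strand) are at chr5:8959108-8959167, chr5:8940956-8941015 and chr5:8899682-8899741. Whether SPRET/EiJ mice differ from the probe letters was not analysed here.

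Levels below are log2 signals relative to the 75th percentile of the array, and differences are log2 differences between group means with the standard error (SE) of the fit. A gene was called, and is said to rise or fall, at an adjusted p under 0.05 in limma's test over all 18678 genes tested, where a gene stands for its brightest probe. In PXDDE against DDE, 9 of the 10 genes were called (3 higher and 6 lower), while 49.9% of all tested genes were called (20.2% higher and 29.7% lower). In PXDDE against control 6 were called (3 higher and 3 lower), and 70.9% of all genes were called (31.6% higher and 39.3% lower). In DDE against control 7 were called (6 higher and 1 lower), against a background of 50.3% of all genes (24% higher and 26.3% lower). So large a background means that the counts of members alone are no result about them, and sizes are read gene by gene. Slc10a1 counts as lower in each comparison by probe 1, the one with the repeat letters. The splits changed when probes sharing a run with at least 10 other genes were left out, an alternative chosen after seeing the data. They were then 4 higher and 5 lower, 4 higher and 2 lower, and 7 higher and 0 lower in the same order. Over all genes tested, 41.2%, 45.1% and 48.0% of calls were then higher. The median absolute difference of the 10 was 0.25, 0.34 and 0.23 in these comparisons, beside 0.22, 0.39 and 0.22 over all genes tested. The comparisons share arrays with each other, so they are not independent.

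Scaling bears on these directions. The 75th percentile of the processed signal was 692 to 710 in PXDDE arrays, 551 to 662 in DDE arrays and 492 to 570 in control arrays, so group and brightness of the array moved together. With each array centred on its median, the median difference over all genes moved to 0.10 in PXDDE against DDE, 0.32 in PXDDE against control and 0.21 in DDE against control, against -0.04, -0.06 and -0.02 with the 75th percentile. The calls among the 10 genes then split into 3 higher and 2 lower in PXDDE against DDE, 7 higher and 1 lower in PXDDE against control, and 8 higher and 1 lower in DDE against control. Over all genes tested they split into 6476 higher and 3295 lower, 10315 higher and 3802 lower, and 9019 higher and 2078 lower, so that 66.3%, 73.1% and 81.3% of calls were higher, against 40.6%, 44.5% and 47.7% with the 75th percentile. Under quantile normalization the members' splits were 4 higher and 2 lower, 6 higher and 3 lower, and 6 higher and 1 lower in the same order, and 52.2%, 53.4% and 52.4% of the calls over all genes were higher.

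Nr0b2 rose in both exposed groups and most with must, and Cyp27a1 and Abcb11 rose likewise. Cyp8b1 fell with must, while in DDE against control it was called, as higher, with median centring only among the scalings. These 4 genes kept their signs in every called comparison under all 5 other scalings tried, although the fall of Cyp8b1 against control shrank to -0.04 with median centring.

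**Figure D1:**
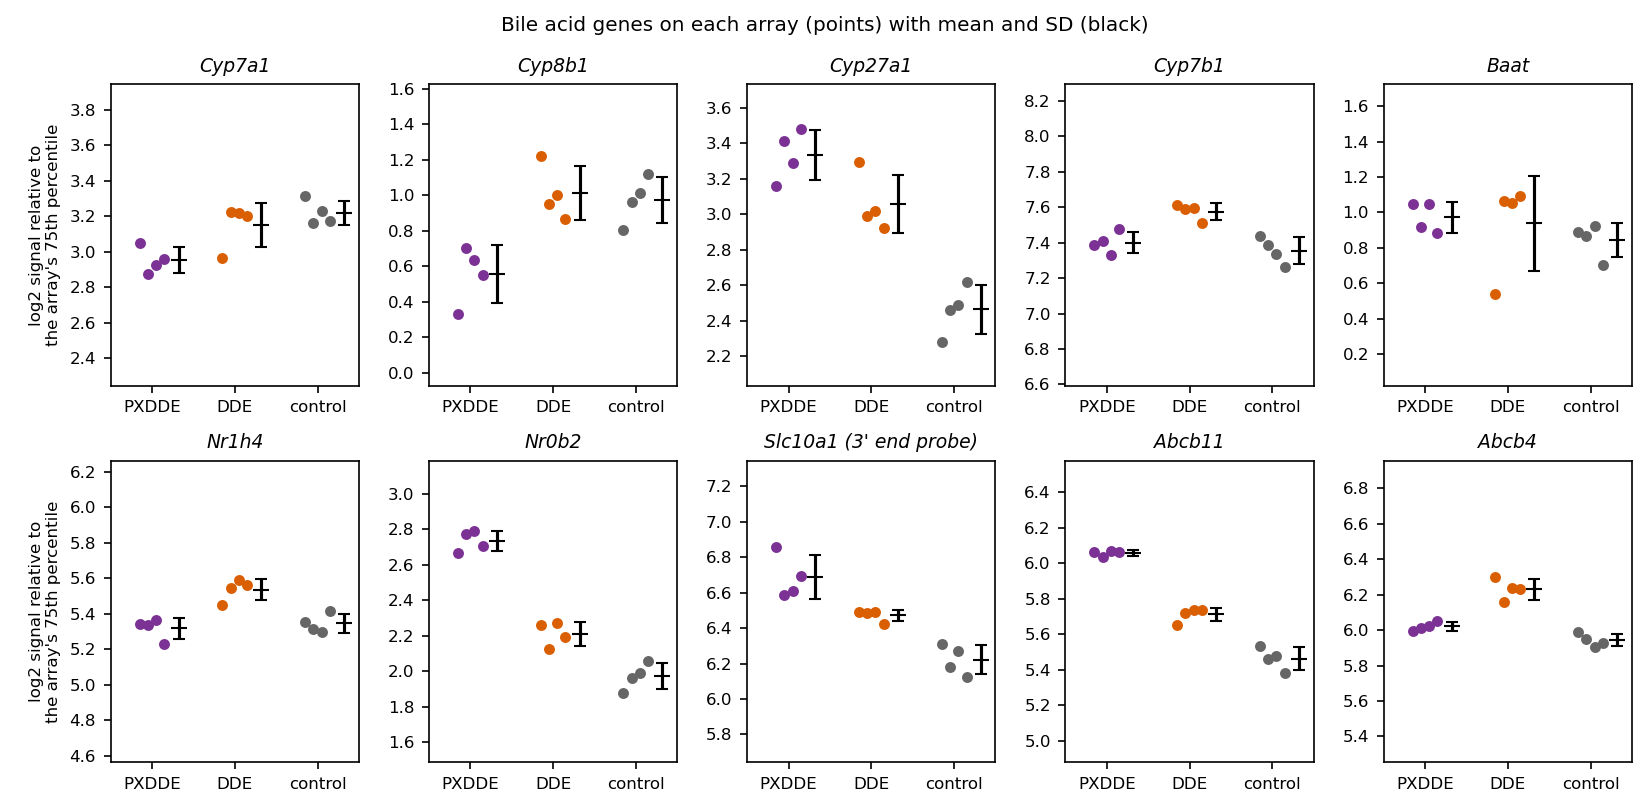
Log2 signal of each gene relative to the array's 75th percentile (vertical axis, the same span in every panel) on each array of the PXDDE, DDE and control groups, with the group mean and SD in black. Nr0b2, Abcb11 and Slc10a1 (its second probe, nearer the 3′ end) are highest in PXDDE arrays and lowest in control arrays with no overlap, while Cyp8b1 is low in the PXDDE arrays only.

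Cyp7a1, the rate-limiting enzyme of the classical pathway, was at 3.05, 2.87, 2.93 and 2.96 in PXDDE arrays, at 2.96, 3.22, 3.22 and 3.20 in DDE arrays and at 3.31, 3.16, 3.23 and 3.17 in control arrays. All PXDDE arrays lay below all control arrays, but 1 DDE array lay among the PXDDE arrays. The difference was -0.27 ± 0.07 (SE) in PXDDE against control (adjusted p = 0.00368), a fall of 1.20-fold, and -0.20 ± 0.07 in PXDDE against DDE (adjusted p = 0.0284). In DDE against control it was -0.07 ± 0.07 (adjusted p = 0.417), but it was called lower in the deposited values (-0.15, adjusted p = 0.0447). The mean of both probes, with equal weight, was also called lower in that comparison (-0.29, adjusted p = 0.0118). The second probe is far dimmer, averaging -2.34 in DDE arrays and -1.82 in control arrays, and is listed without a RefSeq transcript. Its control replicate 1 lay at -1.35, above the other control arrays. With median centring the gene was at 0.16 in DDE against control and not called (adjusted p = 0.0561). With median centring the PXDDE value against control was 0.11 and not called (adjusted p = 0.165), so its sign depends on the centring. The call in PXDDE against DDE was lost in 11 of 27 alternatives. Among these were median centring (-0.05, adjusted p = 0.517) and the slide as a block (-0.16, adjusted p = 0.0587). Leaving out any one of DDE replicates 2, 3 and 4 or PXDDE replicates 2, 3 and 4 also ended it.

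Cyp8b1, the sterol hydroxylase needed for cholic acid, was at 0.33, 0.70, 0.64 and 0.55 in PXDDE arrays, at 1.22, 0.95, 1.00 and 0.87 in DDE arrays and at 0.80, 0.96, 1.01 and 1.12 in control arrays. The PXDDE arrays were below every other array, and the DDE and control arrays overlapped. Cyp8b1 fell 1.37-fold in PXDDE against DDE (-0.46 ± 0.10, adjusted p = 0.00276) and 1.34-fold in PXDDE against control (-0.42 ± 0.10, adjusted p = 0.00264). In DDE against control the difference was 0.04 ± 0.10 (adjusted p = 0.778). Under median centring the fall against DDE was -0.31 and still called, but the value against control was -0.04 (adjusted p = 0.708), and in DDE against control it was 0.27 and called higher (adjusted p = 0.0423).

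Cyp27a1, the mitochondrial enzyme that opens the alternative pathway, was at 3.16, 3.41, 3.29 and 3.48 in PXDDE arrays, at 3.29, 2.99, 3.02 and 2.92 in DDE arrays and at 2.28, 2.46, 2.49 and 2.62 in control arrays. Both exposed groups lay above all control arrays, and they overlapped with each other. It rose 1.83-fold in PXDDE against control (0.87 ± 0.10, adjusted p = 9.42e-06), where 15.8% of all genes tested differed by more. In DDE against control it rose 1.51-fold (0.59 ± 0.10, adjusted p = 0.000482). The smaller rise in PXDDE against DDE (0.28 ± 0.10, adjusted p = 0.0343) was not called in 8 of 27 alternatives, which include leaving out any one of DDE replicates 2, 3 and 4 or PXDDE replicates 2, 3 and 4.

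Cyp7b1, the oxysterol hydroxylase of the same pathway, was highest in DDE arrays by its brightest probe. Its levels were 7.39, 7.41, 7.33 and 7.48 in PXDDE arrays, 7.61, 7.59, 7.60 and 7.51 in DDE arrays and 7.44, 7.39, 7.33 and 7.26 in control arrays. It rose in DDE against control by 0.22 ± 0.05 (adjusted p = 0.00346), and this call held in all 27 alternatives. The fall in PXDDE against DDE (-0.18 ± 0.05, adjusted p = 0.0124) turned to 0.11 under quantile normalization, 0.10 with normexp and quantile and 0.10 in the deposited values, so its direction depends on the scaling. In PXDDE against control the difference was 0.04 ± 0.05 (adjusted p = 0.44), and 4 of the 5 other scalings called it higher, at 0.42 to 0.47. A second probe of Cyp7b1 rose in both exposed groups, by 0.46 ± 0.05 in PXDDE against control (adjusted p = 7.83e-06) and by 0.56 ± 0.05 in DDE against control (adjusted p = 5.34e-06), in the fit over all 27098 probes, where 45.7%, 68.6% and 47.5% of probes were called in PXDDE against DDE, PXDDE against control and DDE against control.

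Baat, which conjugates bile acids, was called in no comparison with the 75th percentile as the scale. It was at 1.05, 0.92, 1.05 and 0.88 in PXDDE arrays, at 0.54, 1.06, 1.06 and 1.09 in DDE arrays and at 0.89, 0.87, 0.92 and 0.70 in control arrays. DDE replicate 1 lay well below the other DDE arrays. The differences were 0.04 ± 0.11 in PXDDE against DDE (adjusted p = 0.817), 0.13 ± 0.11 in PXDDE against control (adjusted p = 0.325) and 0.09 ± 0.11 in DDE against control (adjusted p = 0.518). Without DDE replicate 1 the last was 0.23 and called (adjusted p = 0.0136), and with the slide as a block PXDDE against control was 0.23 and called (adjusted p = 0.0216). With median centring Baat was called higher, at 0.50 in PXDDE against control (adjusted p = 0.00118) and at 0.32 in DDE against control (adjusted p = 0.0226).

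The bile acid receptor Nr1h4 was at 5.34, 5.34, 5.36 and 5.23 in PXDDE arrays, at 5.45, 5.55, 5.59 and 5.56 in DDE arrays and at 5.36, 5.32, 5.30 and 5.42 in control arrays. The DDE arrays were above all others, and PXDDE and control arrays overlapped. Nr1h4 rose in DDE against control by 0.19 ± 0.05 (adjusted p = 0.00666), and that rise kept its sign and call under the 5 other scalings. It rests on the brightest probe: with the mean of both probes the difference was 0.03 (adjusted p = 0.732), and a second probe was at -0.14 ± 0.11 (adjusted p = 0.319). The second probe is far dimmer, averaging -1.77 in PXDDE arrays, -1.25 in DDE arrays and -1.11 in control arrays, and is listed without a RefSeq transcript. The mean gives it the same weight as the brightest probe. The fall in PXDDE against DDE (-0.22 ± 0.05, adjusted p = 0.00289) did not keep its sign: it was 0.03 under quantile normalization and 0.05 in the deposited values, neither called. In PXDDE against control the difference was -0.03 ± 0.05 (adjusted p = 0.608), and the call depends on the processing. Of the 5 other scalings 4 called it higher, at 0.22 with quantile normalization (adjusted p = 0.00682), 0.28 with normexp and quantile (adjusted p = 0.000711), 0.24 in the deposited values (adjusted p = 0.00155) and 0.35 with median centring (adjusted p = 1.29e-05), while the mean of both probes was lower (-0.34, adjusted p = 0.000184).

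Nr0b2, the corepressor SHP, was at 2.67, 2.78, 2.79 and 2.71 in PXDDE arrays, at 2.26, 2.13, 2.27 and 2.19 in DDE arrays and at 1.88, 1.96, 1.99 and 2.06 in control arrays. The 3 groups did not overlap. Nr0b2 rose 1.70-fold in PXDDE against control (0.76 ± 0.05, adjusted p = 1.45e-07), where 20.5% of all genes tested differed by more. It rose 1.44-fold in PXDDE against DDE (0.52 ± 0.05, adjusted p = 1.02e-05) and 1.18-fold in DDE against control (0.24 ± 0.05, adjusted p = 0.00272). Both PXDDE rises were called in all 27 alternatives, at 0.49 to 0.67 against DDE and 0.69 to 1.14 against control, while the DDE rise was lost in the deposited values (0.15, adjusted p = 0.0568).

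Nr0b2 and its target Cyp7a1 were also set against each other within an array, where scaling by a constant cancels. This is a difference between 2 probes, so only its change between groups can be read. Nr0b2 minus Cyp7a1 was -0.38 to -0.10 in PXDDE arrays, -1.10 to -0.70 in DDE arrays and -1.44 to -1.12 in control arrays. The groups did not overlap, with a narrow gap between DDE and control. Cyp8b1 minus Cyp7a1 overlapped among all 3 groups, with means of -2.40 ± 0.24 in PXDDE arrays, -2.14 ± 0.27 in DDE arrays and -2.25 ± 0.19 in control arrays (SD, 4 arrays each).

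**Figure D2:**
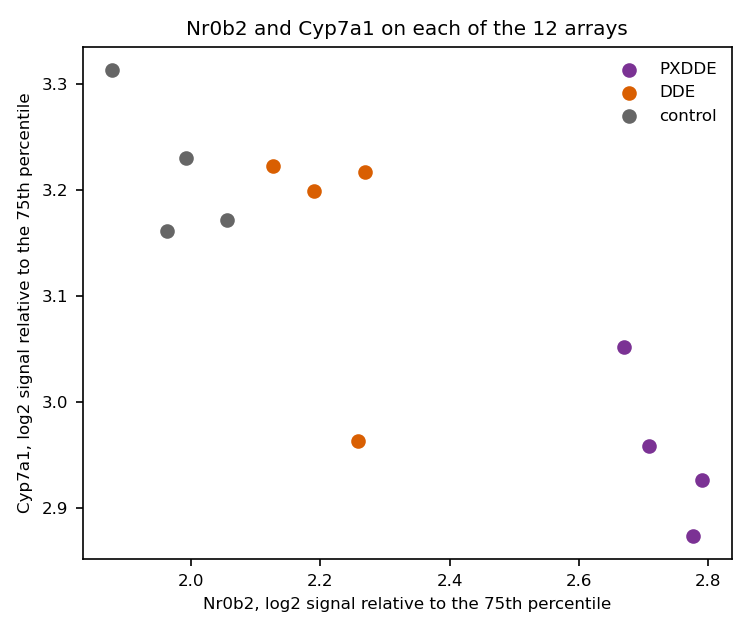
Log2 signal of Cyp7a1 (vertical axis) against that of Nr0b2 (horizontal axis), both relative to the array's 75th percentile, with 1 point for each of the 12 arrays coloured by group. The PXDDE arrays lie apart at high Nr0b2 and low Cyp7a1, and 1 DDE array shares their Cyp7a1 level at a lower Nr0b2 level.

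Abcb11, the bile salt export pump, was at 6.06, 6.03, 6.07 and 6.06 in PXDDE arrays, at 5.65, 5.72, 5.74 and 5.74 in DDE arrays and at 5.53, 5.46, 5.48 and 5.38 in control arrays. The groups did not overlap, and the PXDDE arrays spanned the narrowest range. Abcb11 rose 1.51-fold in PXDDE against control (0.60 ± 0.04, adjusted p = 1.81e-07), where 31.0% of all genes tested differed by more. It rose 1.27-fold in PXDDE against DDE (0.35 ± 0.04, adjusted p = 4.39e-05) and 1.19-fold in DDE against control (0.25 ± 0.04, adjusted p = 0.000495). All 3 rises were called in all 27 alternatives, and within slides they were 0.59 to 0.65, 0.34 to 0.41 and 0.20 to 0.28 in that order.

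Slc10a1, the uptake transporter NTCP, has 2 probes that disagree. Probe 1, the brightest and the one with the repeat letters shown above, was at 8.04, 7.85, 7.93 and 7.95 in PXDDE arrays, at 8.42, 8.31, 8.20 and 8.35 in DDE arrays and at 8.76, 8.86, 8.79 and 8.85 in control arrays. Probe 2 was at 6.86, 6.58, 6.61 and 6.69 in PXDDE arrays, at 6.49, 6.48, 6.49 and 6.42 in DDE arrays and at 6.31, 6.18, 6.27 and 6.13 in control arrays. With each probe the 3 groups did not overlap, and their order was reversed from one probe to the other.

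By probe 1 the gene fell, at -0.87 ± 0.06 in PXDDE against control (adjusted p = 9.8e-08), -0.38 ± 0.06 in PXDDE against DDE (adjusted p = 0.000237) and -0.50 ± 0.06 in DDE against control (adjusted p = 2.93e-05). By probe 2 it rose, by 0.46 ± 0.07 in PXDDE against control (adjusted p = 5.88e-05), 0.21 ± 0.07 in PXDDE against DDE (adjusted p = 0.0188) and 0.25 ± 0.07 in DDE against control (adjusted p = 0.00843). The sign of each probe held under the 5 other scalings. Probe 1 in PXDDE against DDE was not called in 3 of these 5, with -0.12 under quantile normalization, -0.14 with normexp and quantile and -0.06 in the deposited values, and probe 2 in the same comparison missed the threshold without DDE replicate 4 (0.20, adjusted p = 0.0508). Probe 2 minus probe 1 changed by 1.34 in PXDDE against control, by 0.59 in PXDDE against DDE and by 0.75 in DDE against control. Each of these had an exact two-sided permutation p of 0.0286, the smallest that 4 against 4 arrays allow, and an adjusted p of 0.0462 over the 21 probe differences tested. Of these 21, 13 reached the same p, among them Abcb4 probe 2 against probe 1 in 2 of the 3 comparisons. With probes that share a run with at least 10 other genes left out, an alternative chosen after seeing the data, Slc10a1 was called higher in all 3 comparisons.

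Abcb4, the phospholipid transporter, was highest in DDE arrays by 2 of its 3 probes. Probe 1 was at 6.00, 6.01, 6.02 and 6.05 in PXDDE arrays, at 6.30, 6.16, 6.24 and 6.23 in DDE arrays and at 5.99, 5.95, 5.91 and 5.93 in control arrays. Probe 2 was at 1.67, 1.70, 1.51 and 1.62 in PXDDE arrays, at 2.06, 1.91, 2.01 and 1.96 in DDE arrays and at 1.68, 1.55, 1.48 and 1.59 in control arrays. Abcb4 rose in DDE against control by 0.29 ± 0.04 with probe 1 (adjusted p = 0.000147) and by 0.41 ± 0.06 with probe 2 (adjusted p = 0.000209), and it fell in PXDDE against DDE, at -0.21 ± 0.04 with probe 1 (adjusted p = 0.00125) and at -0.36 ± 0.06 with probe 2 (adjusted p = 0.00054). The fall of probe 2 was called under all 5 other scalings, while probe 1 turned to 0.12 under quantile normalization and to 0.10 in the deposited values. In PXDDE against control the difference was 0.08 ± 0.04 with probe 1 (adjusted p = 0.109), and the 5 other scalings called it higher at 0.12 to 0.50. Probe 2 did not share this: it was at 0.05 ± 0.06 (adjusted p = 0.463). Among the 5 other scalings only median centring called probe 2 higher (0.43), and in the deposited values it was -0.02.

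The third probe of Abcb4, near the start of the gene and listed in the files without a RefSeq transcript, behaved otherwise. It was at 1.85, 1.76, 1.70 and 1.77 in PXDDE arrays, at 2.37, 2.34, 2.39 and 2.39 in DDE arrays and at 2.57, 2.60, 2.55 and 2.56 in control arrays, with no overlap. It fell, at -0.80 ± 0.04 in PXDDE against control (adjusted p = 2.57e-08) and at -0.60 ± 0.04 in PXDDE against DDE (adjusted p = 8.53e-07). In DDE against control it was at -0.20 ± 0.04 (adjusted p = 0.0027), which turned to 0.03 and was not called with median centring. Averaging the 3 probes made Abcb4 lower in PXDDE against control (-0.22, adjusted p = 0.000499).

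**Figure D3:**
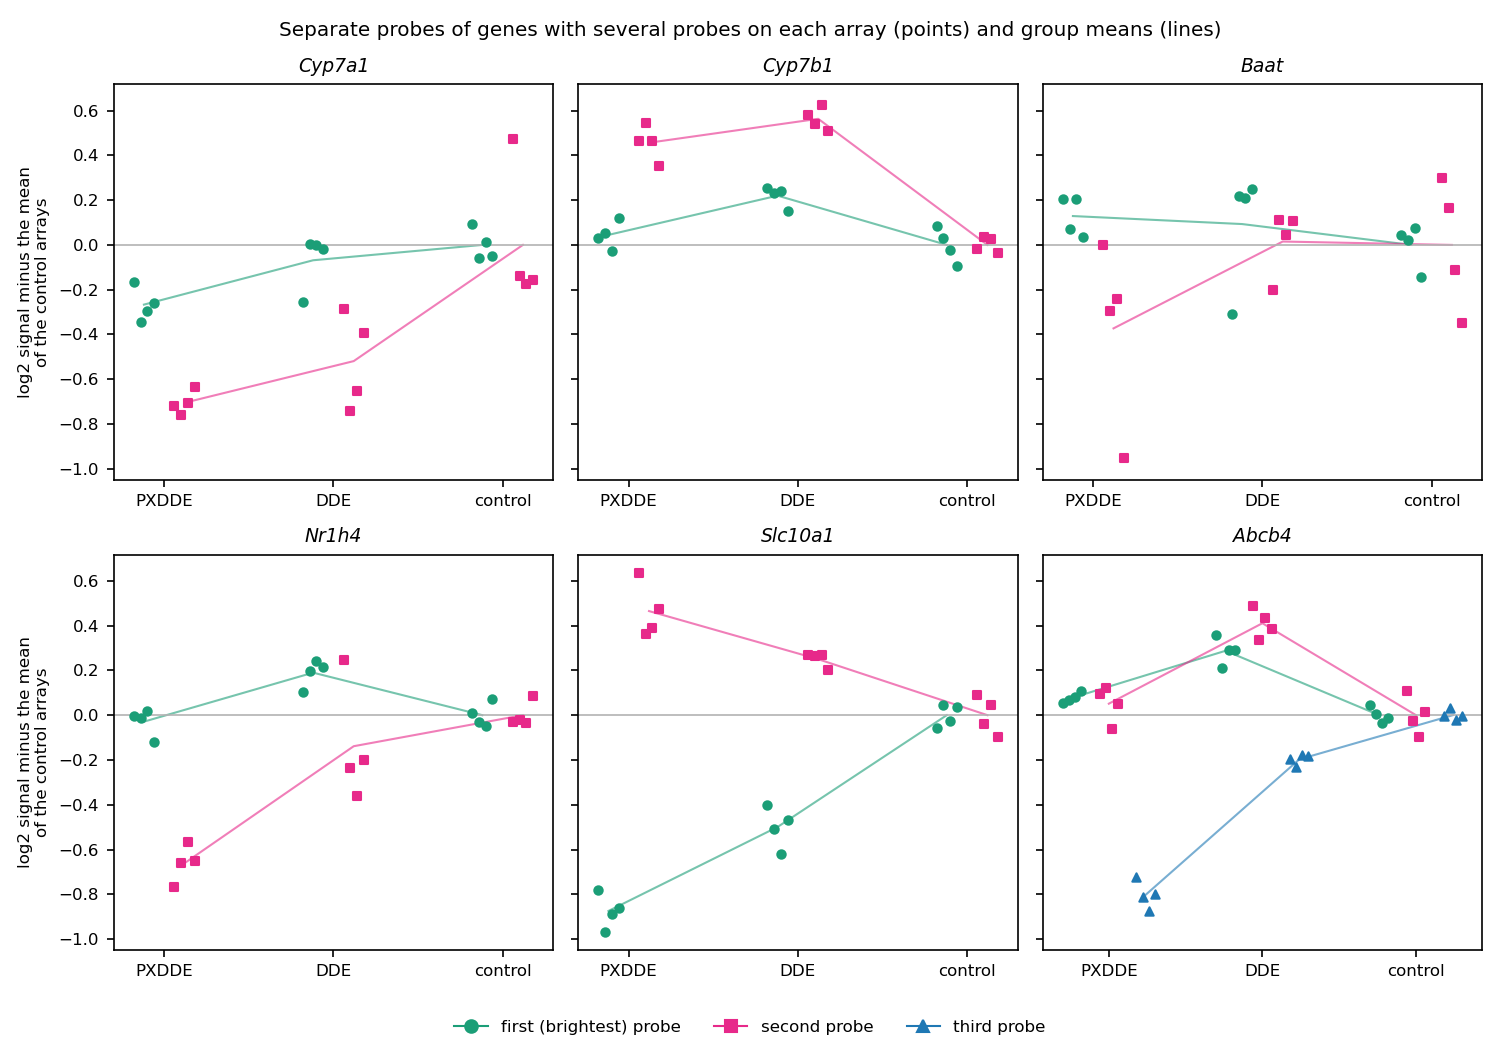
Log2 signal of each probe minus its mean over the control arrays (vertical axis) for the 6 genes with several probes, with 1 point per array in the PXDDE, DDE and control groups and lines through group means. The probes of Slc10a1 part in opposite directions, probes 1 and 2 of Abcb4 are both highest in DDE arrays, and the second probes of Nr1h4 and Cyp7a1 fall further than the first.

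A second probe of Nr1h4, at chr10:88960160-88960219 and listed without a RefSeq transcript, fell, at -0.66 ± 0.11 in PXDDE against control (adjusted p = 0.000207) and at -0.52 ± 0.11 in PXDDE against DDE (adjusted p = 0.00241), and both calls held under the 5 other scalings. It was 42878 bases from the first probe, and both probes share a run of 16 or more bases with a probe of 1 other gene. A second probe of Cyp7a1, also without a listed RefSeq transcript, fell, at -0.70 ± 0.14 in PXDDE against control (adjusted p = 0.00104) and at -0.52 ± 0.14 in DDE against control (adjusted p = 0.012), with control replicate 1 at -1.35 and the other control arrays at -2.00 to -1.96. Median centring ended both calls (-0.33, adjusted p = 0.0507, and -0.29, adjusted p = 0.101), and quantile normalization ended the DDE call (-0.40, adjusted p = 0.0508). A second probe of Baat was called in no comparison, with -0.37 ± 0.19 in PXDDE against control (adjusted p = 0.107). Of the 17 probes, 4 are listed without a RefSeq transcript: the second probes of Cyp7a1, Cyp7b1 and Nr1h4 and the third of Abcb4.

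**Figure D4:**
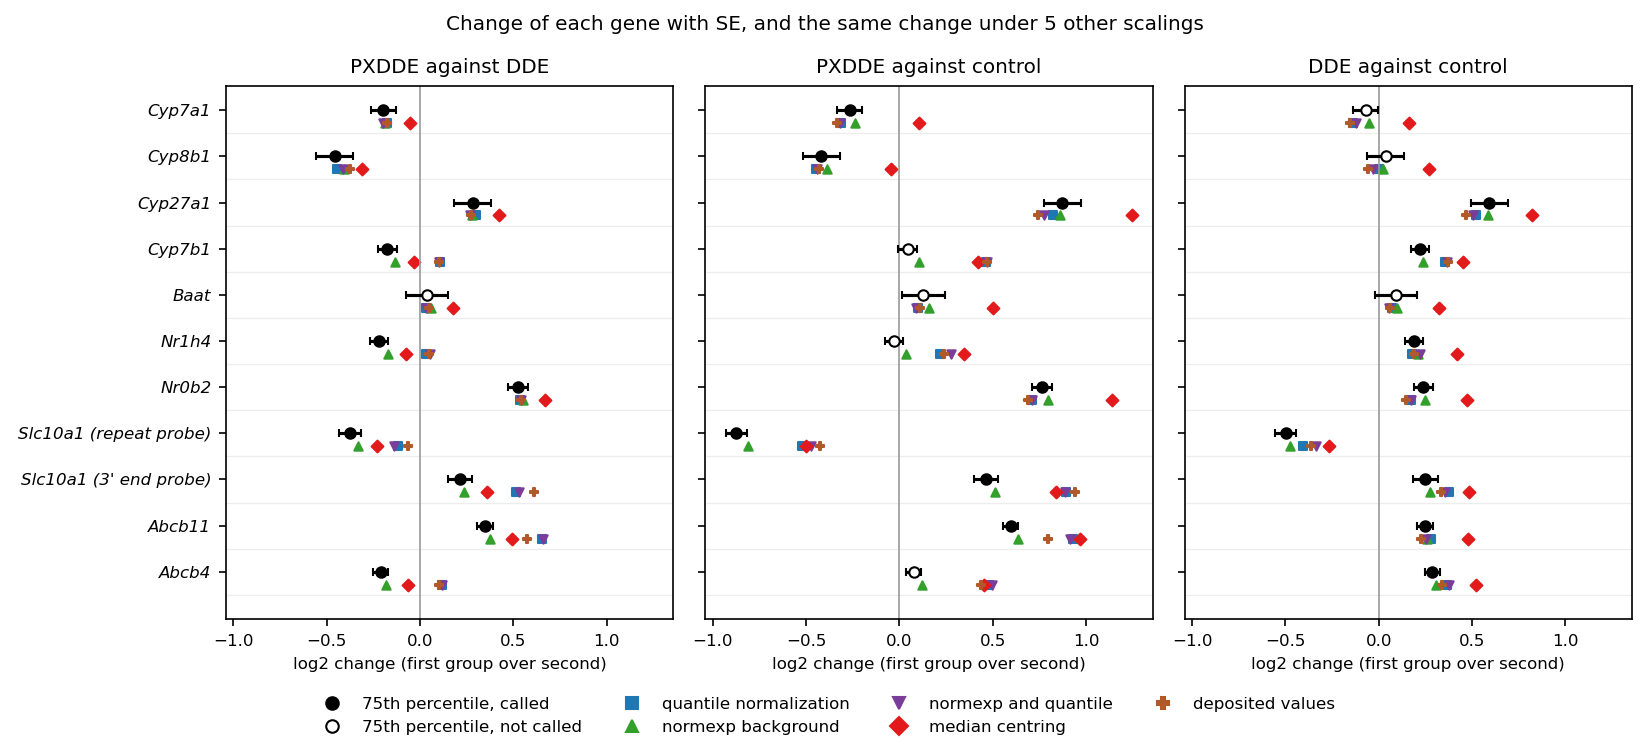
Log2 difference of each gene (horizontal axis) in the 3 comparisons, with the SE of the fit as a bar on the black circle (filled where called) and the same difference under 5 other scalings as coloured marks beneath it. Nr0b2, Abcb11 and Cyp27a1 stay on 1 side of 0 in every panel, while Cyp7b1, Nr1h4 and Abcb4 (first probe) cross 0 in PXDDE against DDE. Nr1h4 also crosses it in PXDDE against control, and Cyp7a1 crosses it in PXDDE against control and DDE against control with median centring. Cyp8b1, which lies near 0 in DDE against control, crosses it there.

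Of 52 other genes of the pathway listed for these samples, 49 were tested. Sult2a1, Slc51a and Fgf15 were not well above background on all arrays of any group. In PXDDE against DDE 14 were higher and 12 lower, in PXDDE against control 22 were higher and 20 lower, and in DDE against control 16 were higher and 16 lower. Of all genes tested, 20.2%, 31.6% and 24% were called higher and 29.7%, 39.3% and 26.3% lower in that order. With median centring the list's calls became 25 higher and 8 lower, 29 higher and 10 lower, and 30 higher and 7 lower. Under quantile normalization they were 23 higher and 8 lower, 26 higher and 17 lower, and 21 higher and 11 lower. Over all genes tested, the share of calls that were higher moved likewise, to 66.3%, 73.1% and 81.3% with median centring and 52.2%, 53.4% and 52.4% under quantile normalization. The list's median absolute difference in PXDDE against control was 0.41, beside 0.39 over all genes tested.

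Among enzymes, 6 of 18 rose and 9 fell in PXDDE against control, where 31.6% of all genes tested rose and 39.3% fell. Sult2a2, a sulfotransferase of the family that acts on bile acids, was not well above background on any PXDDE array and at least 6.96-fold lower than in DDE arrays (adjusted p = 1.77e-08) and at least 9.26-fold lower than in control arrays (adjusted p = 2.26e-09). These bounds hold for the 75th percentile of the processed signal: with normexp and quantile, where the background is modelled, the fitted differences were -1.34 and -1.56, both still called. Its probe shares a run with 1 other gene. Sult2a8, of the same family, fell 2.40-fold in PXDDE against control (adjusted p = 2.03e-08) and 1.94-fold in DDE against control (adjusted p = 6.4e-07). Ch25h, which hydroxylates the cholesterol side chain, rose 2.08-fold in PXDDE against DDE (adjusted p = 1.1e-05) and 1.66-fold in PXDDE against control (adjusted p = 6.62e-05). Cyp46a1, another side-chain hydroxylase of cholesterol, rose 1.76-fold in PXDDE against DDE (adjusted p = 0.000228) and fell 1.74-fold in DDE against control (adjusted p = 0.000266), with 0.02 ± 0.12 in PXDDE against control (adjusted p = 0.914).

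Among transporters, 5 of 12 rose and 6 fell in PXDDE against control, beside 31.6% and 39.3% of all genes tested. Abcc3, an export pump of the sinusoidal membrane, averaged 4.85 in PXDDE arrays, 4.41 in DDE arrays and 2.79 in control arrays. It rose 4.17-fold in PXDDE against control (adjusted p = 3.05e-11), 1.36-fold in PXDDE against DDE (adjusted p = 2.4e-05) and 3.07-fold in DDE against control (adjusted p = 5.47e-10). Only 1.35% of all genes tested differed by more than Abcc3 in DDE against control. Abcc2, the canalicular pump for conjugates, rose 1.76-fold in PXDDE against control (adjusted p = 6.29e-08). Slc51b, a subunit of the basolateral exporter OST, fell 2.18-fold in PXDDE against control (adjusted p = 1.56e-09) and 1.72-fold in DDE against control (adjusted p = 8.88e-08). Slc10a2, the apical uptake transporter of ileum and bile ducts, fell 1.81-fold in PXDDE against DDE (adjusted p = 4.08e-06). It is 1 of 6 ileal enterocyte markers, whose summed log2 signal was 0.11 to 0.40 in PXDDE arrays, 0.91 to 1.03 in DDE arrays and 1.02 to 1.21 in control arrays. Of the 3 tested (Slc10a2, Fabp6 and Vil1), 2 were lower in PXDDE against DDE (median -0.59), 3 in PXDDE against control (median -0.69) and 2 in DDE against control (median -0.46). The sum and the medians include Slc10a2 itself, on average the brightest of these 3 in each group, so they are no measure apart from it. The part of other cells in the fall of Slc10a2 was not tested.

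Among regulators and receptors, 11 of 19 rose and 5 fell in PXDDE against control, beside 31.6% and 39.3% of all genes tested. Klb, the coreceptor through which the ileal hormone FGF15 acts on hepatocytes, fell 2.12-fold in PXDDE against control (adjusted p = 6.83e-07) and 1.87-fold in DDE against control (adjusted p = 9.91e-06). Fgfr4, the receptor it works with, was singled out after its values were seen, and rose 1.62-fold in PXDDE against control (adjusted p = 2.29e-08) and 1.39-fold in DDE against control (adjusted p = 1.59e-06). Nr1i3, the xenobiotic receptor CAR, fell 1.85-fold in PXDDE against control (adjusted p = 2.22e-08) and 1.20-fold in DDE against control (adjusted p = 0.000928), where median centring gave -0.03 and no call. Vdr, which also binds bile acids, fell 1.90-fold in PXDDE against DDE (adjusted p = 2.6e-07), and Foxa2, a hepatocyte factor, rose 1.70-fold in PXDDE against control (adjusted p = 1.31e-06). Wherever one of these 13 genes was called, its sign was the same under the 5 other scalings.

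**Figure D5:**
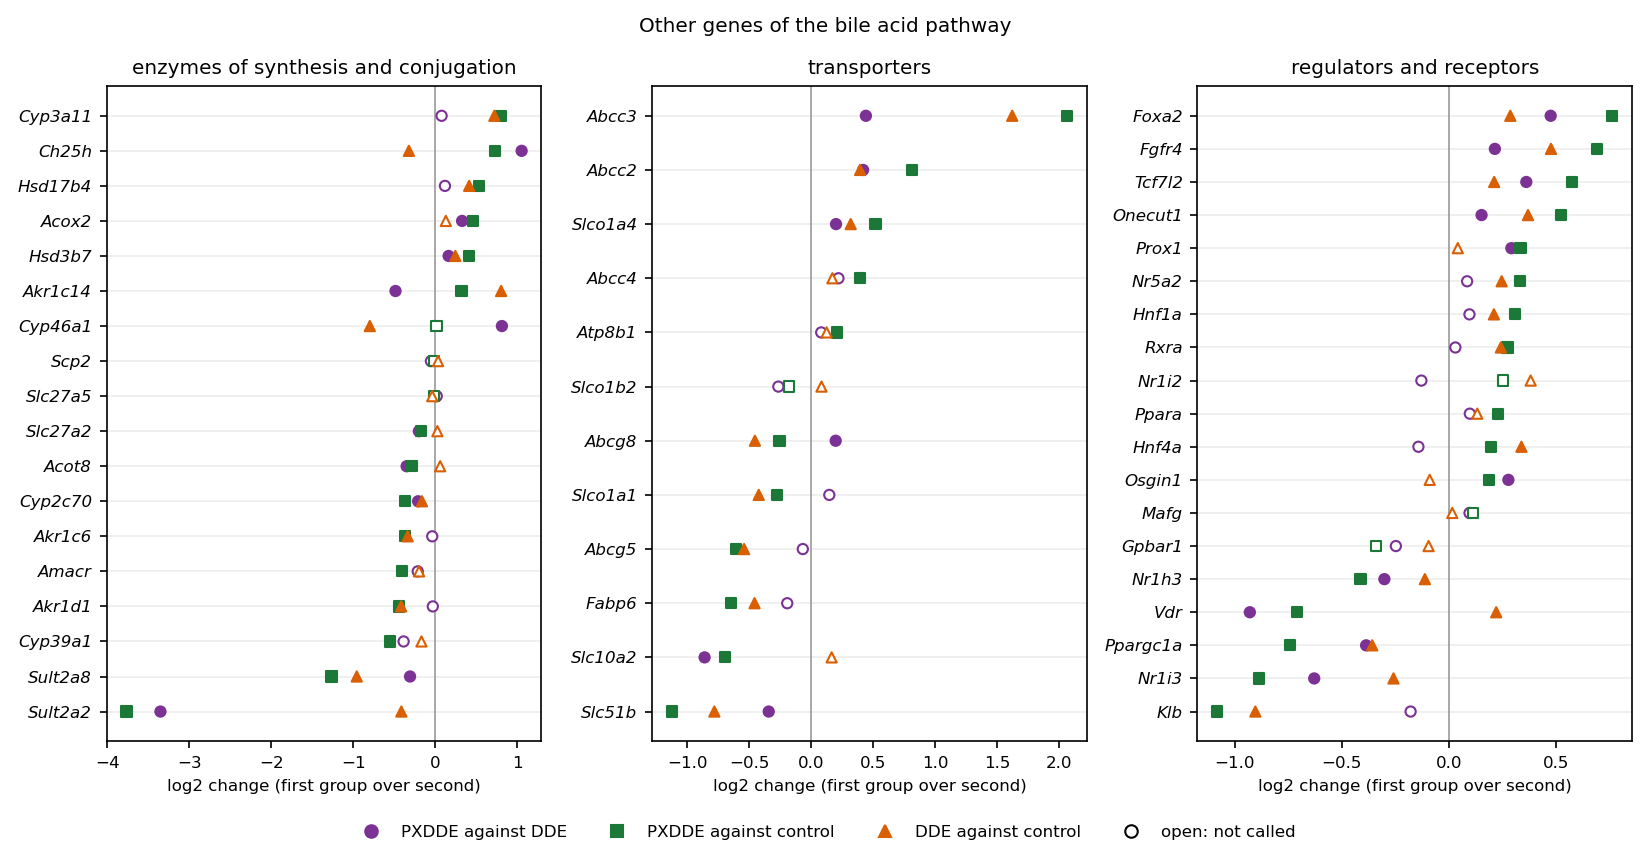
Log2 difference (horizontal axis) of the 49 other pathway genes tested, by role, in PXDDE against DDE (circles), PXDDE against control (squares) and DDE against control (triangles), with open marks where not called. Abcc3 stands farthest to the right and Sult2a2 farthest to the left, where its PXDDE values are not well above background and the plotted difference is the fitted one.

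All 10 hepatocyte markers were tested, and their summed log2 signal was 11.91 to 12.03 in PXDDE arrays, 11.87 to 12.15 in DDE arrays and 12.16 to 12.30 in control arrays. The lowest DDE sum lacks Alb, left out there as an outlier spot, and over the 9 markers other than Alb the sums were 11.58 to 11.69 in PXDDE arrays, 11.77 to 11.87 in DDE arrays and 11.82 to 11.95 in control arrays. The summed signal of the 8 cholangiocyte markers was 3.66 to 3.90 in PXDDE arrays, 3.53 to 3.69 in DDE arrays and 3.38 to 3.53 in control arrays. Markers of acinar pancreas and adrenal cortex moved far more. The 7 acinar pancreas markers summed to 10.29 to 10.33 in PXDDE arrays, 7.67 to 7.84 in DDE arrays and 8.13 to 8.24 in control arrays. The 7 adrenal cortex markers summed to 5.46 to 5.60, 1.25 to 1.36 and 4.68 to 4.80 in the same order. Kidney markers did not move as far: the 6, of which 2 were tested, summed to -0.81 to -0.65, -1.40 to -1.02 and -1.03 to -0.71 in that order. The 6 skeletal muscle markers summed to 6.46 to 6.52 in PXDDE arrays, 6.90 to 6.99 in DDE arrays and 8.27 to 8.30 in control arrays, and the 5 adipocyte markers to 2.94 to 3.04, 1.97 to 2.10 and 4.35 to 4.47 in that order. The 7 Kupffer cell markers summed to 5.46 to 5.58 in PXDDE arrays, 5.93 to 6.02 in DDE arrays and 6.24 to 6.39 in control arrays. Of the ileal enterocyte markers Fgf15, Cdx2 and Slc5a1 were not well above background on any array. The part of these marker lists in the differences of the bile acid genes was not tested, and in a whole-liver sample fewer cells of a type and less RNA per cell cannot be told apart.

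The genes most like 4 of the members over the 12 arrays, by Pearson's r of the log2 levels, are given as a description, since the arrays share groups and scaling. For Cyp7a1 these were Lypla1 (0.965), Gpn3 (0.965) and Hpse (0.962), and for Cyp8b1 Npc2 (0.969), Fuca1 (0.950) and Mrps18a (0.939). For Nr0b2 they were Fads1 (0.991), Ints1 (0.989) and Cog1 (0.989), and for Abcb11 Cand1 (0.995), Cxxc5 (0.995) and Sema4a (0.994). Fads1, a fatty acid desaturase, averaged 4.82 in PXDDE arrays, 4.31 in DDE arrays and 4.12 in control arrays, which is the order of Nr0b2.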

How the data were processed

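Total liver RNA was labelled with Cy3, per the labels' protocols, and the scanner files hold an intensity for each of 62976 spots. The submitters' processing notes name RMA, limma and Agilent Feature Extraction (11.5.1.1). The authors also deposited log2 values of the same arrays, which correlated with the log2 processed signal at 0.995 to 0.996.

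The values here are log2 of the processed signal minus that of each array's 75th percentile, without the 3671 control spots and outlier spots. Probes were kept where every array of 1 or more groups had them well above background (27098 of 56605), and a gene stands for its brightest kept probe. Gene names and mm9 positions are those of the files. The test was limma 3.58.1 (R 4.3.3, data.table version 1.17.8) on group over all 12 arrays, with 9 residual degrees of freedom and Benjamini-Hochberg adjustment over 18678 genes or 27098 probes, and it was tested on simulated data. No member spot was marked as an outlier or saturated, and the precision is limited by 4 arrays per group. A "not well above background" gene has only a bound: the brighter mean over the higher of its own value and the array's lowest value well above background.

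The 10 members, the 52 other pathway genes and the marker lists were chosen with earlier results of these data known. All members are named, and of each role of the other genes the 4 with the largest difference among those called.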

Additional observations from a re-analysis of the deposited data

Results flagged for a closer look

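Of 51 sets of 4 arrays tested (17 probes in 3 groups), 5 held an array far from the other 3, where chance gives about 1 in 20. Cyp7a1 was at 2.96 on DDE replicate 1 and at 3.20 to 3.22 on the other DDE arrays. Baat was at 0.54 on the same array and at 1.06 to 1.09 on the others. The second probe of Cyp7a1 was at -1.35 on control replicate 1 and at -2.00 to -1.96 on the other control arrays. The second probe of Nr1h4 was at -1.02 on control replicate 4, beside -1.14 to -1.13 on the others. The second probe of Slc10a1 was at 6.42 on DDE replicate 4, beside 6.48 to 6.49.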

How the results depend on the processing

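Each result was recomputed under up to 27 alternatives. Of 162 counts of calls (members and other pathway genes), 161 stayed within 1.5 times the reported count, and the exception was 5 members called in PXDDE against DDE with median centring. Leaving out 1 array gave 7 to 9, 6 to 6 and 7 to 8 members called in PXDDE against DDE, PXDDE against control and DDE against control. Signs turned as follows in PXDDE against DDE: Cyp7b1 was 0.11 with quantile normalization, 0.10 with normexp and quantile and 0.10 in the deposited values, Nr1h4 was 0.0345, 0.0552 and 0.0506, and Abcb4 was 0.12, 0.12 and 0.10 under the same settings. In PXDDE against control, Nr1h4 was 0.22, 0.28, 0.24 and, with median centring, 0.35. There Cyp7a1 was 0.11 with median centring and Abcb4 was -0.22 with the mean of its probes. In DDE against control the third probe of Abcb4 was 0.0336 with median centring. With repeat probes left out, Slc10a1 was 0.21, 0.46 and 0.25 in PXDDE against DDE, PXDDE against control and DDE against control. The last follows from the change of probe. The Abcb4 value with the mean of its probes averages 0.08, 0.05 and -0.80 for probes 1, 2 and 3. Median centring shifts each array by a constant, so all members' differences in a comparison move by the same amount. The turns named with median centring follow from that shift. For the turns with quantile normalization, with normexp and quantile and in the deposited values, the cause was not tested.

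The replicate number as a block left 7, 6 and 7 members called in the same order. Among the members it ended the calls of Cyp7a1 (-0.20, adjusted p = 0.0673) and Cyp27a1 (0.28, adjusted p = 0.0709) in PXDDE against DDE. Deviations of same-numbered arrays correlated at -0.37 to 0.13. Arrays with different numbers were not compared in this way, so whether the numbers pair the samples cannot be told from these values. The 5 slides, each its own scan, held 2 or 3 groups. With the slide as a block 8, 7 and 7 members were called, and the values within slides were -0.29 to -0.00 for Cyp7a1, -0.67 to -0.37 for Cyp8b1, 0.45 to 0.54 for Nr0b2 and 0.12 to 0.37 for Slc10a1 probe 2 in PXDDE against DDE.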
